A study of Rattus norvegicus with 11 samples.

Results

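The genes described here carry glucose into the cell and take it through the first committed steps of glycolysis. They were chosen by symbol as Slc2a1, Slc2a3, Hk1, Hk2, Hk3, Gpi, Pfkl, Pfkp, Pfkfb3 and Pfkfb4, and 9 of these 10 symbols stood in the deposited table of 32623 genes, each on 1 row. Pfkfb4 was not found under that symbol and is not analysed here as a member. The table held peripheral leukocytes of male Wistar rats in 11 samples. By the study's methods the rats were 7 weeks old as provided, so they were older when sampled. The labels form 3 groups, with 3 samples from normal healthy rats, 4 samples labelled NAMPT++ and 4 labelled NAMPT+. The NAMPT++ and NAMPT+ samples came from the same 4 rats with collagen-induced arthritis (CIA), given type II collagen in incomplete Freund's adjuvant (IFA-CII) with a boost on day 7, and were taken at about day 8 and about day 14. The controls had no arthritis induced, and the status of each CIA sample had been set by the authors from PCR of Nampt. White blood cells (WBCs) here are what remained after lysis of red blood cells, so several cell types were measured together.

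Glucose enters leukocytes through transporters of the SLC2 family and is trapped by hexokinases as glucose-6-phosphate. Glucose-6-phosphate isomerase turns this into fructose-6-phosphate, and phosphofructokinase makes fructose-1,6-bisphosphate from it in a step that commits the sugar to glycolysis. The PFKFB enzymes make and remove fructose-2,6-bisphosphate, a strong activator of phosphofructokinase. Neutrophils and activated macrophages are known for a heavy use of glycolysis, and several of these genes are known targets of the hypoxia-inducible factor HIF-1.

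Total counts per sample ranged from 65340027 to 85819418. Haemoglobin genes took between 6.84% and 42.8% of the counts, the most in NAMPT+ sample 2 and the least in NAMPT++ sample 1, and FPKM, the fragments of a gene relative to its length and the total of the sample, falls for every other gene where this share is high. Markers of T cells, B cells, NK cells, monocytes, neutrophils and platelets were present in all samples. The summed FPKM of 17 neutrophil markers, all 17 found in the table, ranged from 2319 to 15081 in normal, from 3218 to 41993 in NAMPT++ and from 4087 to 16602 in NAMPT+ samples. Of these 17, Mpo, Np4, Ltf and Cxcr1 had a mean FPKM under 1. None of the 13 neutrophil markers tested by edgeR was called between groups in any of the 3 comparisons made below, and 0 had an unadjusted p under 0.05. Nampt, the gene behind the group names, was at 22.2 ± 9.80 FPKM in normal (SD, n = 3), 30.9 ± 15.3 in NAMPT++ (SD, n = 4) and 22.5 ± 11.8 in NAMPT+ samples (SD, n = 4). It was higher in the later sample in 2 of 4 rats. In bulk samples, fewer cells of a type and less RNA per cell cannot be told apart.

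None of the 9 genes was called in any comparison. By the thresholds of the study a gene was called where its mean FPKMs differed by a ratio above 2 or below 0.5 and an unadjusted p was under 0.05, taken here from the quasi-likelihood test of edgeR on counts. Of 11219 genes tested, 72 or 0.642% were called for NAMPT+ against NAMPT++ samples, and 0 of the 9 genes were among them. For NAMPT++ against normal samples 77 of 11219 genes were called, which is 0.686%, again with 0 of the 9. For NAMPT+ against normal samples 56 of 11269 genes or 0.497% were called, with 0 of the 9. No member reached an unadjusted p under 0.05 in edgeR in any of the 3 comparisons, where 2.28%, 1.57% and 0.87% of all tested genes did, and their Benjamini-Hochberg adjusted p values were all at 0.9996 or above. At an adjusted p under 0.05 edgeR called 0 genes of the whole table in each comparison, while 256, 176 and 98 genes were under 0.05 before adjustment in the order given above, and DESeq2 called 5, 5 and 4 by adjusted p. For each of the 9 genes the FPKM ranges of every pair of groups overlapped, against 0.41%, 1.1% and 0.444% of all tested genes whose groups did not overlap.

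**Figure D1:**
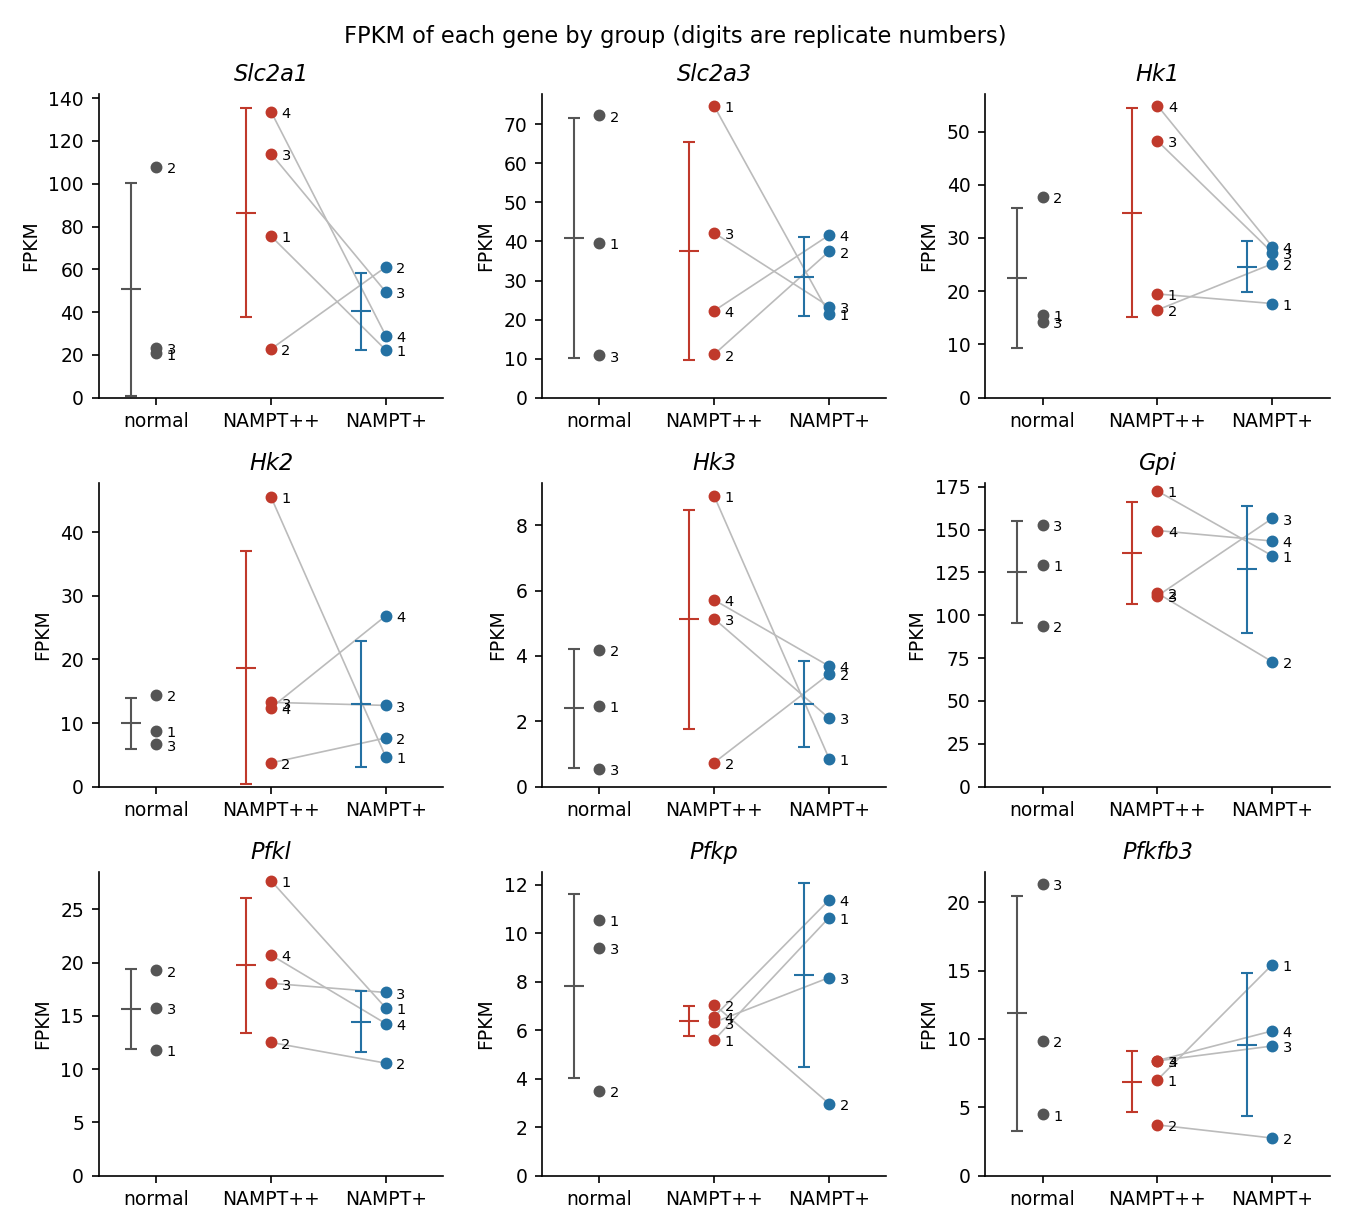
FPKM of each of the 9 genes (vertical axis, from 0) in normal (grey), NAMPT++ (red) and NAMPT+ (blue) samples, with replicate numbers beside the points, the group mean and SD to the left, and grey lines joining the samples of 1 rat. The groups overlap for every gene, and the lines of rat 2 rise for Slc2a1, Slc2a3, Hk1, Hk2 and Hk3 while those of rats 1 and 3 fall. With haemoglobin counts taken out of the totals, Hk1 of rat 1 rose instead, from 20.9 to 23.9.

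Between the groups the sizes were small beside their errors. The median edgeR log2 fold change of the 9 genes was -0.31 for NAMPT+ against NAMPT++ samples, with 7 of 9 below 0, against a median of -0.00 over all tested genes. In the same comparison 9 of 9 tested monocyte markers were below 0 (median -0.49), 8 of 13 neutrophil markers were below 0 (median -0.37) and 8 of 8 erythroid markers were above 0 (median 0.74), with 0 called. Of T, B and NK cell markers 8 of 10, 6 of 7 and 6 of 7 were above 0. The median of the 9 genes was 0.22 for NAMPT++ against normal samples, with 6 of 9 above 0. There 8 of 9 monocyte and 11 of 13 neutrophil markers were above 0. Below 0 were 8 of 8 erythroid, 9 of 10 T cell, 7 of 7 B cell and 6 of 7 NK cell markers. For NAMPT+ against normal samples the median of the 9 genes was 0.03, with 5 of 9 above 0. There 12 of 13 neutrophil, 8 of 8 erythroid and 4 of 9 monocyte markers were above 0. Of T, B and NK cell markers 3 of 10, 1 of 7 and 1 of 7 were. The part of these cell types in the fold changes was not tested. The 3 comparisons share samples pair by pair, so these directions are not independent of each other. The 95% intervals were wide, with a median width of 1.91, 2.77 and 2.49 log2 units in the order given above, and a halving lay inside the intervals of Slc2a1, Slc2a3, Hk2 and Hk3 in each comparison. The smallest two-sided exact permutation p of any member on log2(FPKM + 1) was 0.2 for NAMPT+ against NAMPT++ samples, 0.286 for NAMPT++ against normal samples and 0.571 for NAMPT+ against normal samples, where these designs can reach 0.0286.

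**Figure D2:**
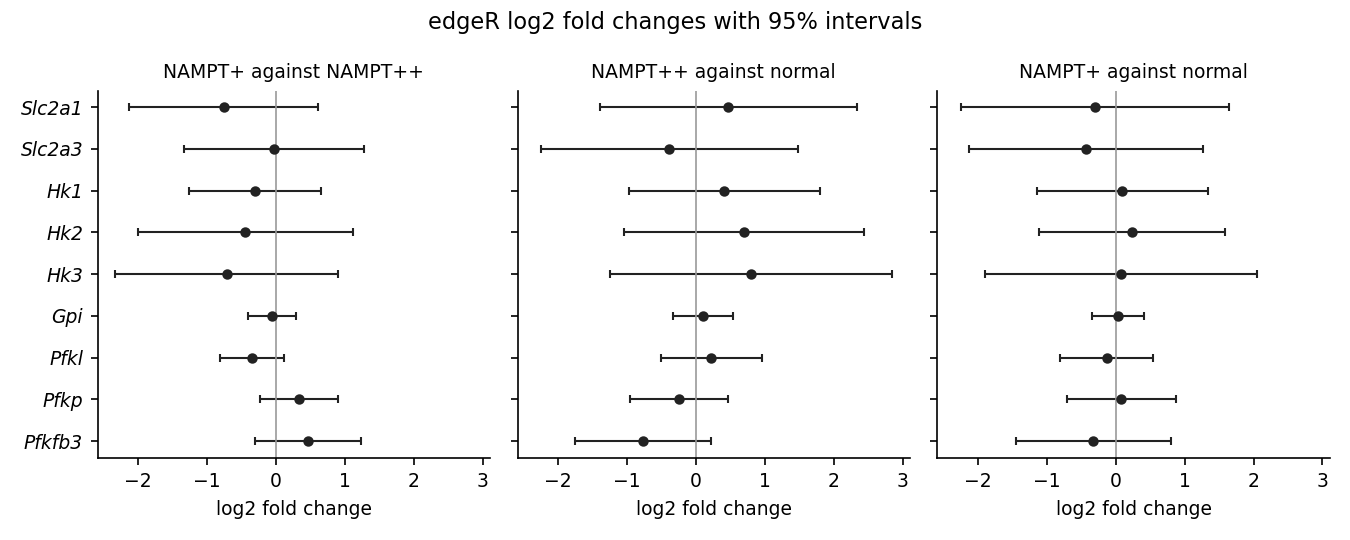
edgeR log2 fold changes (horizontal axis, 0 marked by the grey line) of the 9 genes in the 3 comparisons, as points with 95% intervals. Each interval covers 0, and those of Gpi are the narrowest while those of the transporters, Hk2 and Hk3 are the widest.

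The genes stood at different levels. In the order of median FPKM over the 11 samples, Gpi stood first with 134.7, followed by Slc2a1 with 49.4, Slc2a3 with 37.4, Hk1 with 25.2, Pfkl with 15.8, Hk2 with 12.4, Pfkfb3 with 8.42, Pfkp with 7.06 and Hk3 with 3.45. FPKM is scaled by length, so these levels can be set side by side. The summed FPKM of Slc2a3 and its near copy LOC100909595, described below, had a median of 63.03 and was above Slc2a1 in 7 of 11 samples. The 2 rows differ in counts per FPKM, with 11628 counts at 39.7 FPKM for Slc2a3 and 4057 counts at 36.8 FPKM for the copy in normal sample 1. This sum therefore depends on how shared reads were divided, and it left the order of the transporters unsettled. Slc2a3 was above Hk1 in 6 of 11 samples only, and Pfkfb3 above Pfkp in 7 of 11, so these neighbours were not ordered beyond the spread between samples. Every other neighbour pair kept its order in 8 or 9 of 11 samples. The first 5 places were held by the same genes in the same order in the means of all 3 groups.

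The spread between samples differed between genes. The ratio of the highest to the lowest FPKM was 16.01 for Hk3, 12.2 for Hk2, 7.75 for Pfkfb3, 6.88 for Slc2a3, 6.47 for Slc2a1, 3.86 for Hk1, 3.83 for Pfkp, 2.62 for Pfkl and 2.37 for Gpi. With the haemoglobin counts taken out of the totals these ratios were 14.4, 8.21, 5.30, 8.07, 5.62, 3.56, 2.97, 1.77 and 1.51 in the same order. On the log2(FPKM + 1) scale the range of Hk2 was wider than that of 97.4% of the 11242 genes at or above a mean FPKM of 1, and the ranges of Slc2a1, Slc2a3, Hk3 and Pfkfb3 were wider than those of 93.7%, 94.1%, 94.1% and 93.1%. Gpi had a range wider than 32.4% of these genes and Pfkl wider than 40.6%.

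Slc2a1, which encodes the widely expressed glucose transporter GLUT1, lies on chromosome 5 from 138154673 to 138182897 in the coordinates of the deposited table. Its FPKM was 20.7, 108.0 and 23.3 in normal samples 1 to 3, 75.5, 22.7, 114.1 and 133.7 in NAMPT++ samples 1 to 4, and 22.3, 61.1, 49.4 and 29.0 in NAMPT+ samples 1 to 4. Normal sample 2 stood with the high NAMPT++ samples 3 and 4, and NAMPT++ sample 2 stood with the low normal samples. The means were 50.6 ± 49.7 FPKM in normal (SD, n = 3), 86.5 ± 48.9 in NAMPT++ and 40.4 ± 18.0 in NAMPT+ samples (SD, n = 4 each). The ratio of 0.467 between the NAMPT+ and NAMPT++ means passed the fold threshold but not the test, with an edgeR log2 fold change of -0.76 (95% interval -2.13 to 0.61, adjusted p = 0.9996). With haemoglobin counts taken out of the totals, NAMPT++ samples 1 to 4 stood at 81.1, 36.2, 142.9 and 145.1. NAMPT+ samples 1 to 4 then stood at 30.0, 106.7, 60.6 and 34.0, and the ratio of these means did not pass the fold threshold. Within rats Slc2a1 was lower in the NAMPT+ sample in 3 of 4, with differences of -1.72, -1.19 and -2.17 in rats 1, 3 and 4 on the log2(FPKM + 1) scale, and 1.39 higher in rat 2 (exact sign-flip permutation p = 0.375, smallest possible 0.125).

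Single samples decided how far Slc2a1 was from the thresholds. Without NAMPT+ sample 2 it was called lower in NAMPT+ than in NAMPT++ samples, with an edgeR log2 fold change of -1.49 (adjusted p = 0.72). Without normal sample 2 it was called higher in NAMPT++ than in normal samples, at 2.07 (adjusted p = 0.546), against 0.47 (95% interval -1.40 to 2.33) with all 7 samples. The count of all called genes moved with the same samples, to 165 without NAMPT+ sample 2 and to 462 without normal sample 2.

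Slc2a3 encodes GLUT3, a transporter of high affinity found in neurons and leukocytes, and its row spans 223624 bases of chromosome 4, from 155408233 to 155631856, over the rows of Nanog, Gdf3 and Dppa3, which held at most 5 counts in a sample. FPKM was 39.7, 72.3 and 10.8 in normal samples 1 to 3, 74.7, 11.1, 42.2 and 22.3 in NAMPT++ samples 1 to 4, and 21.5, 37.4, 23.3 and 41.6 in NAMPT+ samples 1 to 4. The highest and the lowest values of all 11 samples lay in the NAMPT++ and normal groups, and the NAMPT+ samples lay between. Group means were 40.9 ± 30.7 FPKM in normal (SD, n = 3), 37.6 ± 27.9 in NAMPT++ and 31.0 ± 10.1 in NAMPT+ samples (SD, n = 4 each). The edgeR log2 fold change was -0.03 (95% interval -1.34 to 1.27) for NAMPT+ against NAMPT++ samples, and 2 of 4 rats were lower in the NAMPT+ sample.

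The values of Slc2a3 are uncertain, because a row named LOC100909595 and described as a like transporter stands beside it on the chromosome, from 155752447 to 155763500, and reads shared by such copies may be divided between them. LOC100909595 was at 36.0 ± 28.0 FPKM in normal, 34.4 ± 27.2 in NAMPT++ and 28.4 ± 10.3 in NAMPT+ samples, and had the pattern nearest to Slc2a3 of 4929 genes over the 11 samples (Pearson r = 0.97). Counted together, both rows gave 77.0 ± 58.7, 71.9 ± 55.0 and 59.3 ± 18.9 FPKM in the same order, and the exact permutation p was 1 in all 3 comparisons. These genes outside the list were looked at after their values were seen.

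Slc2a1 made up 54.1 ± 17.7% of the summed FPKM of Slc2a1 and Slc2a3 in normal (SD, n = 3), 69.0 ± 14.7% in NAMPT++ and 55.5 ± 11.9% in NAMPT+ samples (SD, n = 4 each). Such a share does not move with the haemoglobin counts. It ranged from 34.3% in normal sample 1 to 85.7% in NAMPT++ sample 4, and differed by -13.6 percentage points between NAMPT+ and NAMPT++ samples (two-sided exact permutation p = 0.229, adjusted p = 1 over 30 tests of shares). With LOC100909595 counted with Slc2a3, an alternative chosen after seeing the data, the share of Slc2a1 was 40.4 ± 17.5% in normal (SD, n = 3), 55.7 ± 17.4% in NAMPT++ and 40.04 ± 10.997% in NAMPT+ samples (SD, n = 4 each), and the difference between NAMPT+ and NAMPT++ samples was -15.7 percentage points (exact permutation p = 0.171). No share of any family described here passed, since the smallest exact permutation p of the 30 tests was 0.0857.

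The 250 bases before the start of Slc2a1 are shown because it is a known target of HIF-1. They are given with those of Hk3, which had the largest ratio between samples, of Pfkfb3, and of Gpi, which varied least. They come from RefSeq on the GRCr8 assembly, which was not shown to be the build of the deposited coordinates, and run 5′ to 3′ on the strand of the gene. Capitals mark ACGTG or GCGTG, the core letters of a hypoxia response element, and CACGTG, an E-box that holds ACGTG on both strands, all searched on both strands so that CACGT and CACGC appear as well.
Slc2a1 (chr5:138002272-138002521, +): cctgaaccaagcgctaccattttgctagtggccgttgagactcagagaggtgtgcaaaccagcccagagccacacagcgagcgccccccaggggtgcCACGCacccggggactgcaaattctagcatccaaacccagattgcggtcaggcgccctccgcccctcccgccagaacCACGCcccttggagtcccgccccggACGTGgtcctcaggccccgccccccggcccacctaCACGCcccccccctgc
Hk3 (chr17:9604781-9605030, +): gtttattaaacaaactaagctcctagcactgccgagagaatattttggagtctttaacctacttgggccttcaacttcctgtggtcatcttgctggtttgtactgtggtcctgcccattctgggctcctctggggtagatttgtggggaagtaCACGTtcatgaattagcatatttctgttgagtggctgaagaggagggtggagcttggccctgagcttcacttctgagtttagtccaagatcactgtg
Pfkfb3 (chr17:71944683-71944932, +): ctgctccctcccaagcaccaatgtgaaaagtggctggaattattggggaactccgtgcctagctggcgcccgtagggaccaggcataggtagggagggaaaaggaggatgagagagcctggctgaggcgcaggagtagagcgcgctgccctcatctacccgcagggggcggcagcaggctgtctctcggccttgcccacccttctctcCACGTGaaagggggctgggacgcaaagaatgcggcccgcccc
Gpi (chr1:95993262-95993511, -): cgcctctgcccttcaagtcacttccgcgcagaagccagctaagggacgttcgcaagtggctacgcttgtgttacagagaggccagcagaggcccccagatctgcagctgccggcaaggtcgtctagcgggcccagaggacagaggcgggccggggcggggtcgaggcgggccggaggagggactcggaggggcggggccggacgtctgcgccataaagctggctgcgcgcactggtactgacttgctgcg

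The Slc2a1 window held 1 ACGTG, 51 bases before the start, and 3 GCGTG, all on the opposite strand, at 153, 76 and 16 bases before it. The Hk3 window held 1 ACGTG on the opposite strand 97 bases before the start, the Pfkfb3 window held the E-box at 42 bases, and the Gpi and Hk2 windows held none of these letters. The Pfkl window, not printed, held 2 GCGTG at 215 and 160 bases before the start, and the Pfkp window held 1 GCGTG at 43 bases. Of 33469 promoter windows of this length 36.7% held ACGTG or GCGTG and 5.59% held CACGTG. The 10 windows found cover 9 of the 10 symbols, with 2 windows for Hk1, 1 for Pfkfb4 and none for Slc2a3, and 6 of the 10 held ACGTG or GCGTG and 1 held CACGTG. Of the 2 Hk1 windows, 1 held ACGTG 245 bases before the start and the other held none of these letters. A match describes letters in the window and no binding was measured.

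Hexokinases differ in where they act, with Hk1 held to be the housekeeping enzyme, Hk2 the inducible one and Hk3 the one of myeloid cells. Hk1 on chromosome 20 (31912262 to 31956649) was at 15.5, 37.7 and 14.2 FPKM in normal samples 1 to 3, at 19.5, 16.5, 48.2 and 54.9 in NAMPT++ samples 1 to 4, and at 17.7, 25.2, 27.3 and 28.4 in NAMPT+ samples 1 to 4. The high samples were NAMPT++ samples 3 and 4 and normal sample 2, as for Slc2a1, whose pattern Hk1 followed (Pearson r = 0.86 over 11 samples that share 4 rats). Its mean was 22.5 ± 13.2 FPKM in normal (SD, n = 3), 34.8 ± 19.6 in NAMPT++ and 24.6 ± 4.81 in NAMPT+ samples (SD, n = 4 each). The edgeR log2 fold change was 0.41 (95% interval -0.97 to 1.80) for NAMPT++ against normal samples, and without normal sample 2 it was 1.32 and called (adjusted p = 0.546).

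Hk2 on chromosome 4 (113559427 to 113610243) was at 8.75, 14.4 and 6.67 FPKM in normal samples 1 to 3, at 45.6, 3.74, 13.3 and 12.4 in NAMPT++ samples 1 to 4, and at 4.66, 7.66, 12.8 and 26.9 in NAMPT+ samples 1 to 4. NAMPT++ sample 1 stood above all others, and the same rat gave a low value a week later. The means were 9.96 ± 4.03 FPKM in normal (SD, n = 3), 18.7 ± 18.4 in NAMPT++ and 13.0 ± 9.84 in NAMPT+ samples (SD, n = 4 each). For NAMPT+ against NAMPT++ samples the edgeR log2 fold change was -0.45 (95% interval -2.01 to 1.12), and without NAMPT++ sample 1 it had the opposite sign, at 0.43. The within-rat differences on the log2(FPKM + 1) scale ran from -3.04 in rat 1 to 1.06 in rat 4.

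Hk3 on chromosome 17 (10137974 to 10152956) was the lowest hexokinase, with 2.46, 4.19 and 0.556 FPKM in normal samples 1 to 3, 8.89, 0.737, 5.14 and 5.71 in NAMPT++ samples 1 to 4, and 0.862, 3.45, 2.10 and 3.69 in NAMPT+ samples 1 to 4. These rest on between 155 and 2274 counts. NAMPT++ sample 1 was highest and normal sample 3 lowest. The means of 2.40 ± 1.82 FPKM in normal (SD, n = 3), 5.12 ± 3.36 in NAMPT++ and 2.52 ± 1.31 in NAMPT+ samples (SD, n = 4 each) gave ratios of 2.13 for NAMPT++ against normal and 0.493 for NAMPT+ against NAMPT++ samples. Both ratios passed the fold threshold but not the test, with edgeR log2 fold changes of 0.80 (95% interval -1.25 to 2.85, adjusted p = 0.9999) and -0.71 (95% interval -2.33 to 0.90, adjusted p = 0.9996). With haemoglobin counts taken out of the totals, Hk3 was at 3.53, 6.06 and 0.663 in normal samples 1 to 3. It was then at 9.55, 1.17, 6.44 and 6.20 in NAMPT++ and 1.16, 6.02, 2.57 and 4.33 in NAMPT+ samples 1 to 4. Neither ratio of these means passed the fold threshold.

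Of the summed FPKM of all hexokinases in the table, Hk1 made up a median of 66.9% over the 11 samples, Hk2 25.7% and Hk3 7.44%. Hk1 held 63.7 ± 4.94% in normal (SD, n = 3), 63.1 ± 24.7% in NAMPT++ and 64.6 ± 12.0% in NAMPT+ samples (SD, n = 4 each), and the largest difference between group means was 1.46 percentage points (exact permutation p = 0.943, adjusted p = 1). The wide SD in the NAMPT++ group came from sample 1, in which Hk1 held 26.4% and Hk2 61.6%, against 72.4% to 78.7% for Hk1 and 17.0% to 19.9% for Hk2 in the other 3 samples.

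**Figure D3:**
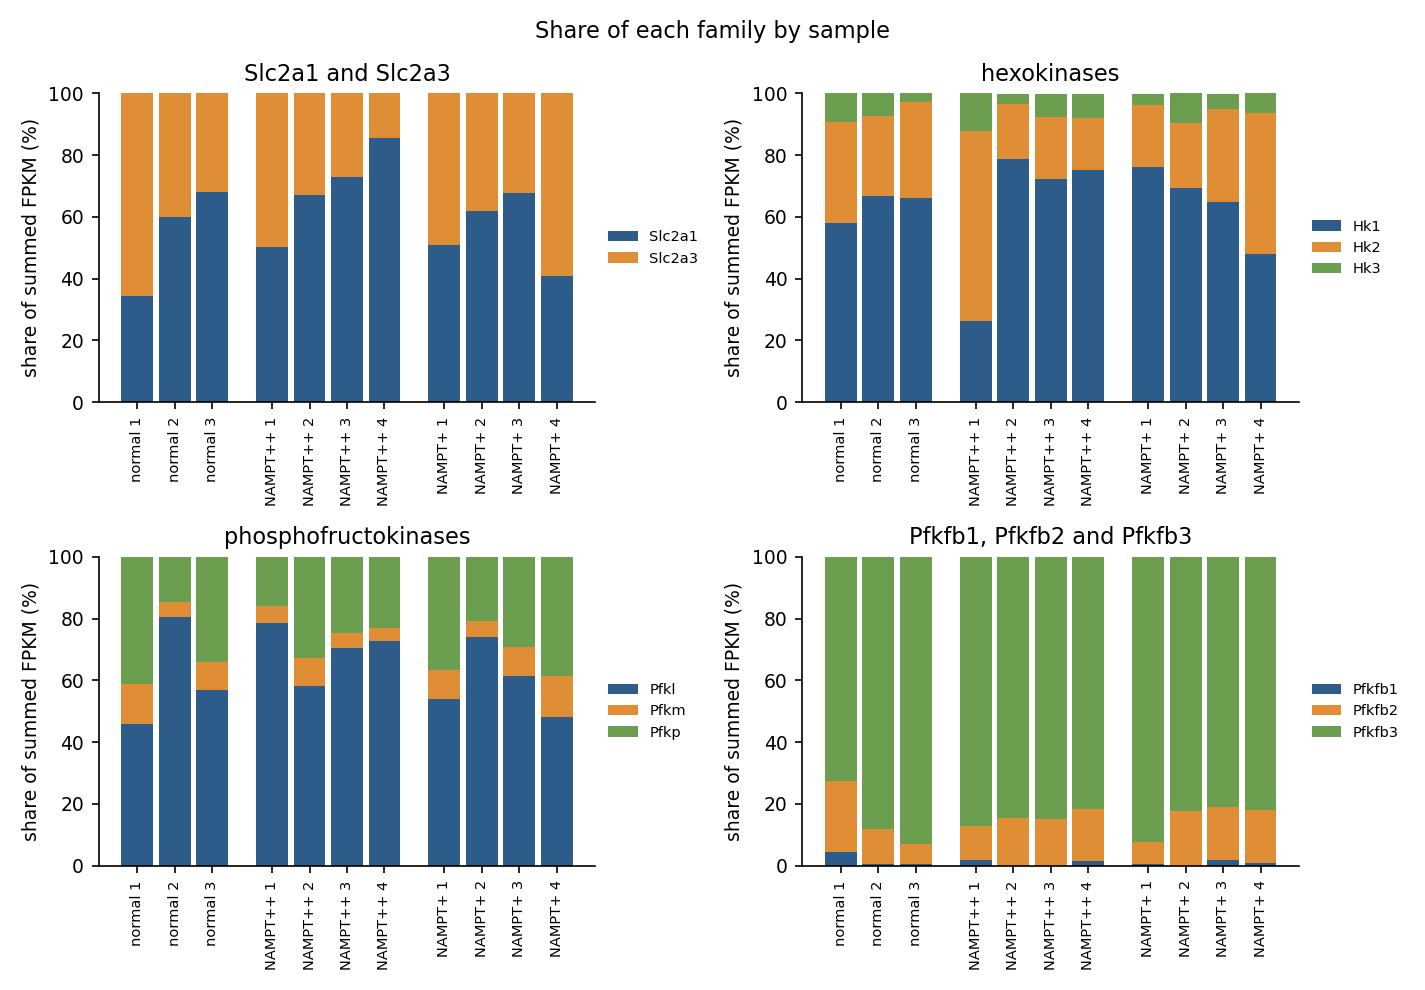
Share in percent of the summed FPKM of each family (vertical axis) held by each gene in the 11 samples, in 4 panels for the transporters, hexokinases, phosphofructokinases and Pfkfb1 to Pfkfb3. The copy of Slc2a3 and the PFKFB4-like rows are left out of the bars, and Hk1, Hk2 and Hk3 fill the hexokinase bars. Hk2 fills 61.6% of the hexokinase bar of NAMPT++ sample 1, and Pfkfb3 fills at least 72.6% of each bar of its panel.

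Gpi, the isomerase, lies on chromosome 1 (90063411 to 90091287) and was the steadiest of the genes. FPKM was 129.6, 93.9 and 152.8 in normal samples 1 to 3, 172.5, 112.9, 111.3 and 149.5 in NAMPT++ samples 1 to 4, and 134.7, 72.9, 156.6 and 143.4 in NAMPT+ samples 1 to 4. The lowest value fell in NAMPT+ sample 2, which had the highest haemoglobin share of all samples. With haemoglobin counts taken out, Gpi lay between 127.3 and 191.9 in all 11 samples. The group means were 125.4 ± 29.6 FPKM in normal (SD, n = 3), 136.6 ± 29.8 in NAMPT++ and 126.9 ± 37.1 in NAMPT+ samples (SD, n = 4 each). Its edgeR intervals were the narrowest of the list, at -0.41 to 0.30 for NAMPT+ against NAMPT++, -0.33 to 0.54 for NAMPT++ against normal and -0.35 to 0.41 for NAMPT+ against normal samples, so that a doubling or a halving lay outside all 3.

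Pfkl encodes the liver type of phosphofructokinase, which is also the main type of many leukocytes, and lies on chromosome 20 (11393877 to 11415882). It was at 11.8, 19.3 and 15.8 FPKM in normal samples 1 to 3, at 27.7, 12.5, 18.1 and 20.7 in NAMPT++ samples 1 to 4, and at 15.7, 10.6, 17.2 and 14.3 in NAMPT+ samples 1 to 4. Of the 9 genes it was the one that was lower in the NAMPT+ sample of all 4 rats, with differences of -0.78, -0.22, -0.07 and -0.51 on the log2(FPKM + 1) scale (exact sign-flip permutation p = 0.125, the smallest possible). The means were 15.6 ± 3.75 FPKM in normal (SD, n = 3), 19.7 ± 6.31 in NAMPT++ and 14.4 ± 2.85 in NAMPT+ samples (SD, n = 4 each). The edgeR log2 fold change of -0.34 between NAMPT+ and NAMPT++ samples had a 95% interval from -0.81 to 0.12 (adjusted p = 0.9996).

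Pfkp encodes the platelet type of the same enzyme and lies on chromosome 17 (68511064 to 68559471). Its FPKM was 10.6, 3.51 and 9.41 in normal samples 1 to 3, 5.60, 7.06, 6.33 and 6.57 in NAMPT++ samples 1 to 4, and 10.7, 2.97, 8.17 and 11.4 in NAMPT+ samples 1 to 4. Normal sample 2 and NAMPT+ sample 2 were the lowest, and NAMPT+ samples 4 and 1 and normal sample 1 were the highest. Over the 11 samples Pfkp ran against Slc2a1 (Pearson r = -0.67). The means of 7.82 ± 3.78 FPKM in normal (SD, n = 3), 6.39 ± 0.606 in NAMPT++ and 8.29 ± 3.80 in NAMPT+ samples (SD, n = 4 each) overlapped, and the NAMPT++ group had the smaller spread.

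Together Pfkl, Pfkm and Pfkp divided the phosphofructokinase FPKM into median shares of 61.5%, 8.89% and 29.2%. Pfkl held 61.1 ± 17.7% in normal (SD, n = 3), 70.1 ± 8.63% in NAMPT++ and 59.4 ± 11.1% in NAMPT+ samples (SD, n = 4 each). The difference of -10.7 percentage points between NAMPT+ and NAMPT++ samples did not pass (two-sided exact permutation p = 0.2, adjusted p = 1). For Pfkm, the muscle type, the difference was 3.63 percentage points (exact permutation p = 0.0857, adjusted p = 1), the smallest p of the 30 tests.

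Pfkfb3, whose enzyme mostly makes fructose-2,6-bisphosphate, lies on chromosome 17 (70684134 to 70711224). FPKM was 4.48, 9.88 and 21.3 in normal samples 1 to 3, 7.01, 3.72, 8.40 and 8.42 in NAMPT++ samples 1 to 4, and 15.4, 2.75, 9.49 and 10.6 in NAMPT+ samples 1 to 4. Normal sample 3, the lowest of all for Slc2a3, Hk1 and Hk3, was the highest for Pfkfb3. The means were 11.9 ± 8.60 FPKM in normal (SD, n = 3), 6.89 ± 2.21 in NAMPT++ and 9.57 ± 5.23 in NAMPT+ samples (SD, n = 4 each). For NAMPT++ against normal samples the edgeR log2 fold change was -0.77 (95% interval -1.75 to 0.22, adjusted p = 0.9999). Without normal sample 1 it was -1.15 and called (adjusted p = 0.9999). Pfkfb3 held a median of 84.6% of the FPKM of Pfkfb1, Pfkfb2 and Pfkfb3, with group means of 84.6%, 84.6% and 84.4% in normal, NAMPT++ and NAMPT+ samples.

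Pfkfb4 itself was not found, but 2 rows named LOC100911725 on chromosome 8, from 117737117 to 117775386 and from 118392773 to 118414603, are described as a PFKFB4-like gene. They were looked at after their values were seen and are not counted as members. The first was at 6.58 ± 3.95 FPKM in normal (SD, n = 3), 12.6 ± 7.72 in NAMPT++ and 9.47 ± 3.58 in NAMPT+ samples (SD, n = 4 each), and was highest in NAMPT++ samples 4 and 3, as Slc2a1 and Hk1 were. The second had 0 counts in NAMPT+ sample 1 and 4 counts in NAMPT+ sample 4, against 115 to 1370 in the other 9 samples. Together both rows were above Pfkfb3 in 9 of 11 samples, with a median of 12.4 against 8.42 FPKM. The first row alone had a median of 8.40 FPKM. Whether the 2 rows count the same transcripts was not tested, and results for both together rest on their sum. With them counted into the family, an alternative chosen after seeing the data, Pfkfb3 held 47.5 ± 21.4% in normal (SD, n = 3), 26.4 ± 6.97% in NAMPT++ and 39.7 ± 23.98% in NAMPT+ samples (SD, n = 4 each), so its large share above holds only with these rows left out. The difference between NAMPT++ and normal samples was then -21.1 percentage points (exact permutation p = 0.0857). The levels of both rows together gave exact permutation p values of 0.371 for NAMPT+ against NAMPT++, 0.229 for NAMPT++ against normal and 0.657 for NAMPT+ against normal samples.

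The genes fell into patterns across samples that the groups did not follow. Slc2a1, Slc2a3, Hk1, Hk2 and Hk3 shared 4, 4, 4, 4 and 5 of their 5 lowest samples with the 5 samples lowest in summed neutrophil markers, while Gpi shared 2, Pfkl 3, Pfkfb3 2 and Pfkp 0. With the 5 samples lowest in summed monocyte markers they shared 4, 3, 4, 5 and 4, and Gpi, Pfkl, Pfkfb3 and Pfkp shared 3, 4, 3 and 1. The sum of the 10 monocyte markers found ranged from 4335 to 10726 FPKM in normal, from 5804 to 12900 in NAMPT++ and from 5518 to 13944 in NAMPT+ samples, and Ms4a7 had a mean under 1. With the samples lowest in other summed markers, Pfkp shared 5 of 5 for B cells and 4 of 5 for T cells and for NK cells, Gpi and Pfkfb3 shared 4 for T cells and 3 for B and NK cells, and the transporters and hexokinases shared 0 to 2 for these 3 lists. Hk2 and Slc2a3 shared 4 with the basophil and mast cell markers, and no member shared over 3 with the erythroid or platelet markers. A high haemoglobin share lowers the FPKM of other genes, so its effect would not show as lowest samples shared with erythroid markers. Gpi shared 0 with these. How many of all tested genes share as many of their lowest samples with a marker list was not counted, so these counts do not set the members apart from other genes. The part of these cell types in the levels was not tested.

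**Figure D4:**
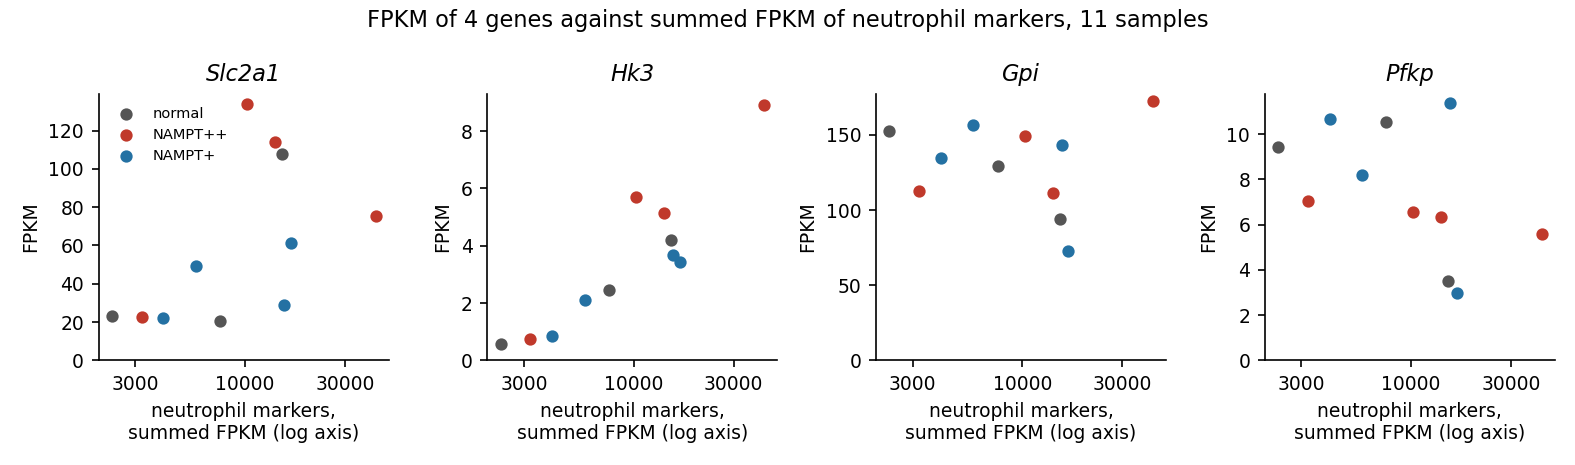
FPKM of Slc2a1, Hk3, Gpi and Pfkp (vertical axes, from 0) against the summed FPKM of 17 neutrophil markers (horizontal log axis) in 11 samples coloured by group. The 5 samples with the lowest marker sums are also the 5 lowest for Hk3, while none of them is among the 5 lowest for Pfkp.

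The genes with the most similar pattern over the 11 samples, by Pearson r of log2(FPKM + 1) among genes averaging 10 FPKM or more, differed from member to member. For Slc2a1 they were Pik3ap1, Arfgap3 and Jdp2 (r = 0.99, 0.98 and 0.98), for Hk1 Cks2, Slc11a2 and Ctsd (0.98, 0.96 and 0.95), and for Hk2 Plp2, Sri and Samd4b (0.98, 0.98 and 0.97). For Hk3 they included Aif1 and Fgr (both 0.98), which are known from myeloid cells, and for Slc2a3 they included Cebpb (0.93), a factor of myeloid cells. For Gpi they were Cdc37, Grk2 and Sirt7 (all 0.98), for Pfkl Lrp10, Nptn and Ndufb9 (0.93, 0.93 and 0.92), for Pfkp Acd and Isyna1 (0.98 and 0.97) beside a row of a small RNA family, and for Pfkfb3 Sstr3 and Tmem131l (0.88 and 0.85). Places left out here were held by rows with a clone name only or, for Slc2a3, by its copy. These are descriptions over samples that share rats and haemoglobin shares, and many genes reach a high r over 11 points.

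Other genes of the pathway were read against the same background, 0.642%, 0.686% and 0.497% of all tested genes called. Of 10 tested genes for other uptake and early glycolysis, 0 were called in each comparison and 0 had an unadjusted p under 0.05 in edgeR, with a median log2 fold change of 0.02 for NAMPT+ against NAMPT++ samples and 0.05 for NAMPT++ against normal samples. The highest were Slc2a6, a transporter of myeloid cells, at 28.9 ± 28.5 FPKM in normal, 53.5 ± 28.1 in NAMPT++ and 31.7 ± 15.1 in NAMPT+ samples, then G6pc3 at a mean of 19.4 and Adpgk at 7.67 over all samples.

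Of 15 tested genes of later glycolysis and lactate export, Tpi1, which encodes triosephosphate isomerase, was the 1 called. It was lower in NAMPT+ than in NAMPT++ samples, at 9.71 ± 5.18 against 31.4 ± 21.9 FPKM (SD, n = 4 each), with an edgeR log2 fold change of -1.55 ± 0.65 (SE, adjusted p = 0.9996). The median of the 15 genes was -0.18 in that comparison and 0.33 for NAMPT++ against normal samples, where 11 of 15 were above 0, 0 were called and 0 had an unadjusted p under 0.05. The highest were the pyruvate kinase Pkm at a mean of 469.9 FPKM, the lactate exporter Slc16a3 at 312.2 and the aldolase Aldoa at 304.5, all 3 highest in NAMPT++ sample 1.

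Of the pentose phosphate and glycogen branches, 0 of 16 tested genes were called for NAMPT+ against NAMPT++ samples and 0 of 15 in the other 2 comparisons, with 0 at an unadjusted p under 0.05 in edgeR. Taldo1 and Tkt, enzymes of the non-oxidative branch, averaged 256.7 and 172.8 FPKM, and both were again highest in NAMPT++ sample 1. Of 25 tested genes of the hypoxia response and its regulators 0 were called and 0 had an unadjusted p under 0.05, with medians of 0.07, 0.03 and 0.06 in the 3 comparisons. Txnip, which restrains glucose uptake, averaged 144.2 FPKM, the HIF hydroxylase Egln1 98.3 and the mitophagy receptor Bnip3l 97.1.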

How the data were processed

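WBC samples of normal (n = 3), NAMPT++ (n = 4) and NAMPT+ (n = 4) status were compared a pair at a time. Libraries were of poly(A) RNA, sequenced in paired-end reads. The deposited extraction protocol speaks of retinas, in conflict with the sample sources and the methods. The authors used Cutadapt 1.9, HISAT2 2.0.4, StringTie 1.3.4 and Gffcompare 0.9.8, by the methods and the submitters' processing notes. The genome build and the way reads were counted are not given in the sources used here. The counts deposited by the authors are whole numbers of reads per gene without normalization. The FPKM values deposited by the authors are scaled by gene length and sample total, and 0.0001 in them was read as 0.

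Tests covered genes averaging 1 FPKM or more in the 2 groups compared and used edgeR 4.0.16 (R 4.3.3) in its quasi-likelihood form with TMM normalization, and p values were adjusted by the Benjamini-Hochberg method over all tested genes. Calls needed a ratio of mean FPKMs above 2 or below 0.5 together with p under 0.05 before adjustment. Standard errors and 95% intervals come from the same fit. Levels and shares within a family were compared by two-sided exact permutation, with log2(FPKM + 1) for levels. Whether samples of a group were separate animals is stated for the CIA rats only, and p values otherwise measure the spread between samples. Within groups the chi-square per degree of freedom between samples was at least 287, so none was a copy of another, and counting error is small beside this spread.

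Same-numbered NAMPT++ and NAMPT+ samples are of 1 rat by the deposited descriptions. Their deviations from the group means correlated at -0.27, -0.24, 0.23 and 0.09 for rats 1 to 4, and a fit with the rat as a replicate block was an alternative.

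The genes and lists were chosen with earlier results of these data known. Named genes are all members, the genes called and the 3 highest by mean FPKM of each of 4 pathway lists, and for each member the 3 genes most like it. The values of some genes under this rule are not reported here. Alternatives were upper quartile scaling, DESeq2 1.42.0, limma 3.58.1 on log2(FPKM + 1) or log2(FPKM + 0.1), no filter, a mean FPKM of at least 10, haemoglobin genes left out, all 3 groups in one fit, shares of counts, and leaving out each sample. The limma fit with the replicate block and Slc2a3 counted with its copy were added after seeing the data. Marker lists were of neutrophils, monocytes, T, B and NK cells, platelets, erythroid cells, and basophils and mast cells. Their tested members gave 0 calls in all 3 comparisons except for Ms4a2, higher in NAMPT+ than NAMPT++ samples, and Ppbp, lower in NAMPT++ than normal samples. The fits were also run on simulated counts with known changes, and the share of these changes found is not reported here.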

Additional observations from a re-analysis of the deposited data

Results flagged for a closer look

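Of 50 sets of 4 samples checked for a sample far from the other 3, 5 stood out by Dixon's ratio, where chance alone gives about 1 in 20. In NAMPT++ sample 1 the Hk1 share of hexokinases was 26.4% against 72.4% to 78.7% in the others, and the Hk2 share was 61.6% against 17.0% to 19.9%, so both mark the same sample. That sample also had the highest summed neutrophil markers and the lowest haemoglobin share, and the part of these in the shares was not tested. In NAMPT+ sample 1 the Pfkfb2 share was 7.17% against 17.0% to 17.7%, and the Pfkfb3 share accordingly 92.4% against 81.0% to 82.3%. The second LOC100911725 row was at 13.4 FPKM in NAMPT++ sample 3 against 4.32 to 4.96 in the other 3 samples.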

How the results depend on the processing

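The 9 genes gave 0 calls in all 3 comparisons under upper quartile scaling, DESeq2, both limma fits, no filter, without haemoglobin genes, with all groups in one fit, with Slc2a3 counted together with its copy and, for NAMPT+ against NAMPT++ samples, under the replicate block in edgeR and in limma. With a mean of at least 10 FPKM 0 of 6, 6 and 7 members tested were called, since Hk3 and Pfkp were then not tested and Pfkfb3 was tested for NAMPT+ against normal samples only. The replicate block called 56 genes of the table and changed no call of a member. Counts of called genes moved by more than 1.5 times with no filter, to 295, 306 and 261 for NAMPT+ against NAMPT++, NAMPT++ against normal and NAMPT+ against normal samples, where more genes were tested, and with a mean of at least 10 FPKM, to 19, 25 and 14, where fewer were. DESeq2 gave 121, limma on log2(FPKM + 1) 145 and limma on log2(FPKM + 0.1) 140 for NAMPT++ against normal samples, and limma with the replicate block 123 for NAMPT+ against NAMPT++ samples, and the cause was not tested. Leaving out a sample gave 58 to 165, 53 to 462 and 49 to 136 called genes in the 3 comparisons, and 0 to 1, 0 to 2 and 0 to 0 called members. These were Slc2a1 without NAMPT+ sample 2, Slc2a1 and Hk1 without normal sample 2, and Pfkfb3 without normal sample 1. No share passed its test in any setting, but without a sample the comparisons with normal samples could not pass, since the smallest exact permutation p is 0.0667 for 4 samples against 2 and 0.1 for 3 against 3. Log2 fold changes with another sign were near 0, for Slc2a3 between NAMPT+ and NAMPT++ samples 0.00076 under upper quartile scaling, 0.0014 at a mean of at least 10 FPKM and 0.057 under the replicate block, and for NAMPT+ against normal samples 0.00071 for Slc2a1 with limma on log2(FPKM + 0.1) and, for Gpi, -0.0128 with limma on log2(FPKM + 1) and -0.0132 with limma on log2(FPKM + 0.1). Leaving out a sample turned the sign for NAMPT+ against NAMPT++ samples of Slc2a3 (-0.51 to 0.49), Hk2 (-0.92 to 0.43) and Gpi (-0.14 to 0.038), for NAMPT++ against normal samples of Slc2a3 (-0.91 to 0.57), Hk2 (-0.19 to 1.33) and Pfkp (-0.50 to 0.094), and for NAMPT+ against normal samples of Slc2a1 (-1.04 to 1.303), Slc2a3 (-0.93 to 0.54), Hk1 (-0.26 to 1.00), Hk2 (-0.21 to 0.87), Hk3 (-0.54 to 1.01), Pfkl (-0.32 to 0.30), Pfkp (-0.18 to 0.40) and Pfkfb3 (-0.71 to 0.085). It also turned the Slc2a1 share for NAMPT+ against normal samples (-8.59 to 8.39 percentage points), and with LOC100909595 counted with Slc2a3 that share differed by -0.384. Counting error was small beside the spread between samples.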
